A study of Mus musculus with 6 samples.

Results

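In all, 8 genes of the prostaglandin and leukotriene pathways, Ptgs1, Ptgs2, Hpgds, Hpgd, Alox5, Alox5ap, Ltc4s and Ptger4, were followed in immune cells of the mouse midbrain. They were taken by their symbols, and each is 1 row of the 32285 genes in the deposited matrices. The study profiled CD45+ cells from the ventral midbrain by scRNA-Seq, 6 weeks after an injection into the striatum on both sides. The mice were males of Line 61, which carry human α-Syn, the protein that aggregates in Parkinson's disease, under the Thy1 promoter, and they were 12 to 15 weeks old at the injection. Thy1 drives the transgene in neurons, so that the immune cells measured here are not the cells meant to make human α-Syn. The PBS group received the buffer, the monomer group received soluble human α-Syn, and both PFF groups received sonicated preformed fibrils of it. The PFF + AZD1480 group was then gavaged with AZD1480, an inhibitor of JAK1 and JAK2, at 25 mg/kg daily for 4 weeks, and the PFF + VH group with the DMSO vehicle on the same schedule. Midbrains of several mice were pooled for each sample. There is 1 library of mRNA per condition, and the libraries of PFF + VH and PFF + AZD1480 were stained with 4 and 5 hashtags, that is with antibodies whose barcode tells apart the samples in a library. Hashtags served as replicates here, which the labels do not spell out, so that p-values measure the spread between hashtags of 1 library per treatment. Library and condition cannot be told apart, and PBS and monomer entered no test. By the series' design PBS and monomer have 3 replicates each, which share 1 library and could not be separated in the files used here.

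Prostaglandins and leukotrienes are signalling lipids made from arachidonic acid, which phospholipases free from membranes. The cyclooxygenases Ptgs1 and Ptgs2 turn it into prostaglandin H2, and terminal synthases turn that into the separate prostaglandins. Hpgds makes prostaglandin D2, Hpgd inactivates prostaglandins by oxidizing them, and Ptger4 is the EP4 receptor for prostaglandin E2. In the other branch, Alox5 with the membrane protein Alox5ap makes leukotriene A4, and Ltc4s joins it to glutathione to give leukotriene C4. Ptgs1 is known as the constitutive cyclooxygenase and Ptgs2 as the one induced by inflammation. In the brain, both microglia (MG) and the macrophages of its borders are known sources of these lipids, and neutrophils are a classical source of leukotrienes.

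The genes lie on separate chromosomes, apart from Hpgds and Alox5, which are both on chromosome 6. In GENCODE for the GRCm38 build, Ptgs1 spans chr2:36230426-36252272 and Ptgs2 spans chr1:150100031-150108227, both on the plus strand. Hpgds spans chr6:65117293-65144908 on the minus strand, and Hpgd spans chr8:56294585-56321043 on the plus strand. Alox5 spans chr6:116410077-116461178 on the minus strand, Alox5ap chr5:149264767-149288153 on the plus strand and Ltc4s chr11:50236461-50238616 on the minus strand. Ptger4 spans chr15:5206661-5244187 on the minus strand. Genes annotated on the other strand overlap Ptgs1 (Gm43621), Hpgds (Gm17147), Alox5ap (n-R5s180 and Gm19719), Ltc4s (Gm26542) and Ptger4 (Ttc33 and Gm15937), and Gm45540 overlaps Hpgd on its own strand. Whether the counting used strand is not given in the sources used here, and how reads in these overlaps were assigned was not checked.

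The 250 bases before the start of 4 members are printed 5′ to 3′ on the gene's strand (RefSeq, GRCm38.p6). Ptgs1 and Hpgds are shown because their levels were highest in MG, and Ptgs2 and Ptger4 because both were higher in MG high in disease-associated or in inflammatory cytokine genes, in the results given further on. Of the members, 7 have an entry in the table used, and Alox5ap has none. Capitals mark matches on either strand to 3 motifs, which were chosen with the sequences in view: GAGGAAGT, a form of the PU.1 motif, TTGCGCAA, the palindrome bound by C/EBP factors, and GGGCGG, the GC box.
Ptgs1, chr2:36230176-36230425, plus strand: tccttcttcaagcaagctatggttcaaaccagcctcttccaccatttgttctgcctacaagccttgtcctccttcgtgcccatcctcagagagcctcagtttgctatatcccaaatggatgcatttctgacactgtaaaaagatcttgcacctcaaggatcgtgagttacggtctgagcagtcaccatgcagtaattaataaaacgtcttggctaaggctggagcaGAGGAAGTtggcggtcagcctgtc
Hpgds, chr6:65144731-65144980, minus strand: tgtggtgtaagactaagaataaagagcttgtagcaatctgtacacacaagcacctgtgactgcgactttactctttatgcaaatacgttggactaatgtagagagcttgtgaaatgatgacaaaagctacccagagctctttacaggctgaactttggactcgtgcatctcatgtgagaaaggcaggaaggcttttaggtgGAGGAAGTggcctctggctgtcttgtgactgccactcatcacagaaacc
Ptgs2, chr1:150099781-150100030, plus strand: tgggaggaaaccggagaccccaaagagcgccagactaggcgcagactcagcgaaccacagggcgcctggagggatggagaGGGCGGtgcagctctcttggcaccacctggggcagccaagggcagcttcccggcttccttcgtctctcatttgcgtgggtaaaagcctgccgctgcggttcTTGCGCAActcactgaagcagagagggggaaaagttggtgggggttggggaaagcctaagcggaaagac
Ptger4, chr15:5244188-5244437, minus strand: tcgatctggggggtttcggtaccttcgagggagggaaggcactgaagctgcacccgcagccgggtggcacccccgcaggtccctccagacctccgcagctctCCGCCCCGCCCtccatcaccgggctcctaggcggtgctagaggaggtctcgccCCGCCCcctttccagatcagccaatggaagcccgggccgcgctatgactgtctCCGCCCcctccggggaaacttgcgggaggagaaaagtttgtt
GAGGAAGT stood 24 to 17 bases before the start of Ptgs1 and 49 to 42 bases before that of Hpgds, counted from the RefSeq starts, and 2.44% of the 32851 promoters of the same length hold it. TTGCGCAA stood 69 to 62 bases before the start of Ptgs2, and 0.164% of the promoters hold it. GGGCGG is common, at 32.7% of promoters. It stood 170 to 165 bases before the start of Ptgs2, and Ptger4 held it in 4 places, of which the first 2 overlap by a base. The GENCODE span of Hpgds begins farther upstream than its RefSeq start, so that most of the stretch printed for it, its match included, lies inside that span. For the other 3 genes printed both starts are the same. These matches describe the letters of the sequence and are not evidence of binding.

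The libraries held 13813 to 34828 barcodes, and 13021 to 34436 cells passed the filters on counts, genes and mitochondrial share. The median depth was 6616 to 7028 UMIs per cell in PBS, monomer and PFF + AZD1480 but 2306 in PFF + VH, which held the most cells. Pairs of libraries shared 51 to 163 barcodes. A single hashtag was found for 52.0% of PFF + VH cells and for 81.0% of PFF + AZD1480 cells, and cells without one in PFF + VH had a median of 1346 UMIs. Cells were classed by UMIs of marker genes that hold none of the 8 members. MG numbered 11320 to 29255 per library and border macrophages 128 to 224. T and NK cells numbered 97 to 204, neutrophils 18 to 100 and B cells 22 to 44. The 10 microglial markers summed to 9589 to 11532 CPM in MG (CPM is a gene's UMIs scaled by all UMIs of the summed cells), where the 11 border macrophage markers summed to 17.2 to 43.8 CPM. Border macrophages held 10453 to 13539 CPM of their own markers and still 2009 to 2656 CPM of the microglial ones. Whether the latter came from MG was not tested. The 11 border macrophage markers, such as Mrc1, Pf4 and Cd163, were all detected in that class, and in MG, of every library. They set the class, so that this is no check of it.

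The range of each gene over the 4 libraries was compared between cell classes, and how often other genes separate in this way was not counted. Each gene is compared with itself across classes only, since transcripts of different genes may be captured unequally. Ptgs1 and Hpgds were highest in MG, Hpgd in border macrophages, and Ptgs2, Alox5 and Alox5ap in neutrophils, without overlap with the other classes compared. Among the 5 classes plotted, Ptger4 had its highest mean in T and NK cells and Ltc4s in border macrophages, but there the range overlapped that of the next class, border macrophages for Ptger4 and MG for Ltc4s.

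**Figure D1:**
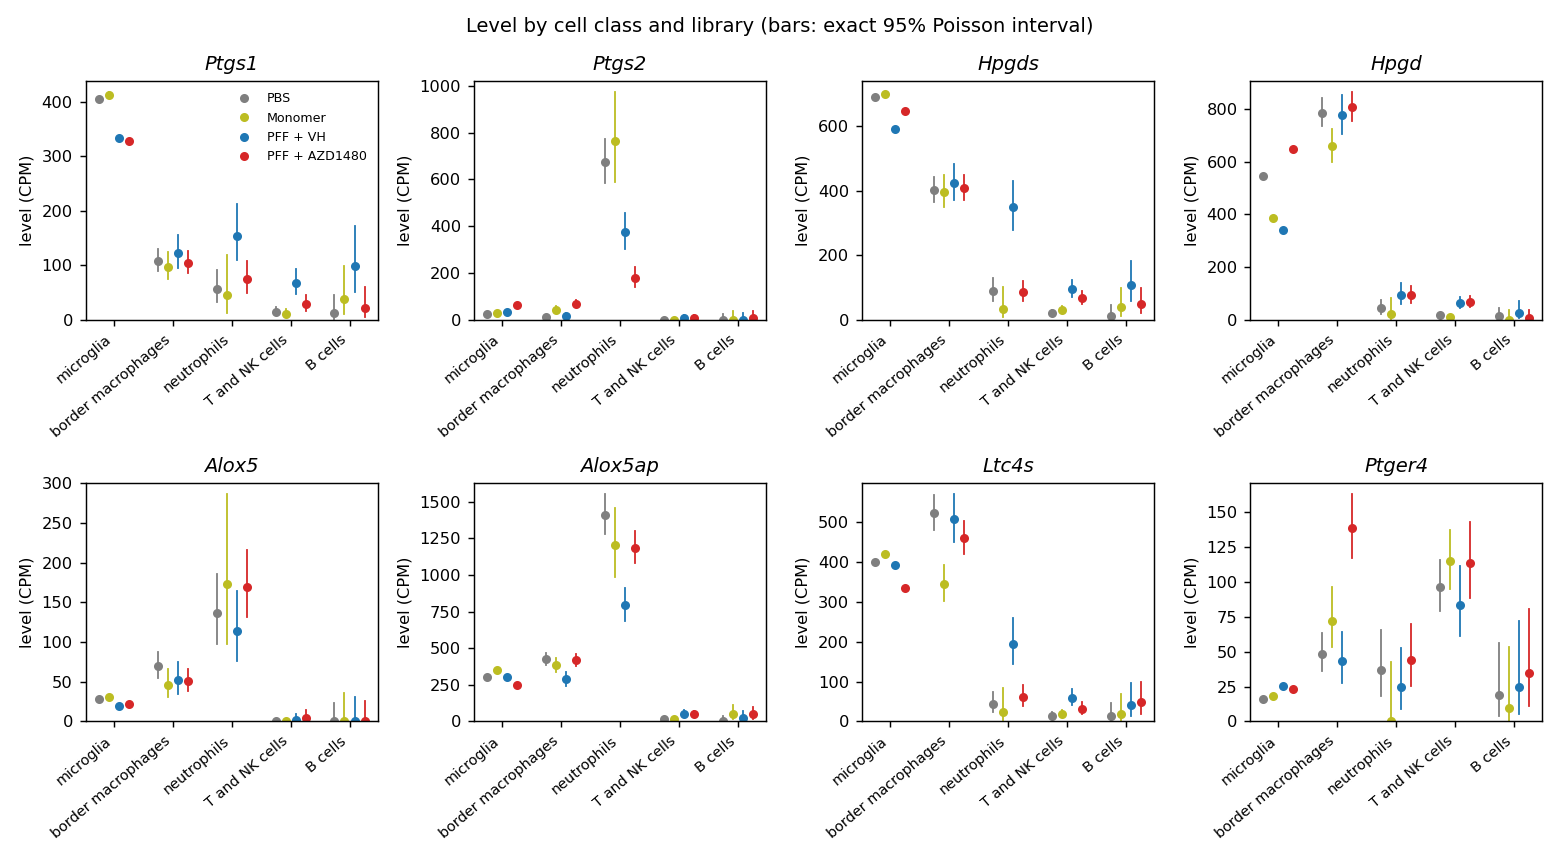
Level of each of the 8 genes (y axis, CPM of the summed class) in MG, border macrophages, T and NK cells, B cells and neutrophils (x axis), with 1 point per library (PBS, monomer, PFF + VH, PFF + AZD1480) and exact 95% Poisson intervals, which cover counting error only. Ptgs1 sat at 328 to 413 CPM in MG and at 97.0 to 122 CPM in border macrophages, while Ptgs2, Alox5 and Alox5ap reached their highest levels in neutrophils.

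Among the cyclooxygenases, Ptgs1 stood in MG at 405 and 413 CPM in the PBS and monomer libraries and at 333 and 328 CPM with fibrils and vehicle or AZD1480, a mean of 369 ± 45.5 (SD, n = 4 libraries). In border macrophages it averaged 108 ± 10.6 CPM and in T and NK cells 30.5 ± 25.8 CPM. Every library had Ptgs1 higher in MG than in the other 4 classes plotted. Ptgs2 ran the other way. It averaged 497 ± 269 CPM in neutrophils, with a range of 180 to 763 CPM, against 37.5 ± 18.3 CPM in MG and 33.8 ± 26.5 CPM in border macrophages. The lowest neutrophil library lay above the highest MG library, while the ranges of MG and border macrophages overlapped. In T and NK cells Ptgs2 averaged 4.59 ± 4.37 CPM.

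The D2 synthase and the inactivating enzyme were both high in the brain's resident macrophages, in opposite order. Hpgds averaged 657 ± 49.8 CPM in MG and 408 ± 11.8 CPM in border macrophages, with ranges that did not overlap. Hpgd averaged 757 ± 66.5 CPM in border macrophages, against 481 ± 143 CPM in MG, and its ranges, 659 to 807 CPM and 339 to 649 CPM, did not overlap either. The receptor gene Ptger4 averaged 102 ± 14.9 CPM in T and NK cells, 75.6 ± 44.0 CPM in border macrophages and 21.0 ± 4.32 CPM in MG. Its order among neutrophils, B cells and MG was not resolved, since those ranges overlapped.

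In the leukotriene branch, neutrophils led for the first steps. Alox5 averaged 148 ± 28.5 CPM there, 54.8 ± 10.4 CPM in border macrophages and 25.4 ± 5.27 CPM in MG, and no neighbouring ranges in this order overlapped. In cells thinned to 1000 UMIs the order of border macrophages and MG turned in monomer (8 against 31.9 CPM). In B cells of the 4 libraries Alox5 had no UMI, which allows a level of up to 19.2 to 28.7 CPM (3 counts per library). Alox5ap averaged 1149 ± 257 CPM in neutrophils, 379 ± 63.3 CPM in border macrophages and 302 ± 40.6 CPM in MG, and the last 2 overlapped. Ltc4s, the last enzyme of the branch, averaged 458 ± 80.6 CPM in border macrophages and 386 ± 37.2 CPM in MG, and 80.7 ± 77.6 CPM in neutrophils. The neutrophils of PFF + VH stood apart, with Ltc4s at 195 CPM against 23.1 to 61.7 CPM in the other 3 libraries. They also held the 10 microglial markers at 43.7% of the MG level, against 4.31% to 17.0% in the others, and the part of this in the levels of Ltc4s, Ptgs1 and Hpgds in neutrophils was not tested. Among the classes plotted, neutrophils were the class with the most Alox5 and Alox5ap but not with the most Ltc4s.

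For Hpgds, the share of cells with a UMI was also higher in MG than in T and NK cells. In cells thinned to 1000 UMIs, 43.5% to 48.7% of MG held a UMI of Hpgds, and 2.31% to 11.25% of T and NK cells did. That class was taken as a comparison for background. Whether T and NK cells make some Hpgds themselves was not tested. Before thinning the shares were 72.6% to 93.8% of MG and 8.82% to 26.8% of T and NK cells, at median depths of 2546 to 7363.5 and 2912 to 6352 UMIs. In T and NK cells, 7 of the members stood at 2.76% to 21.6% of their MG level in each library, apart from Alox5 at 0 in PBS and monomer, and the 10 microglial markers stood at 3.2% to 13.8%. Ptger4 was the exception, at 325% to 620.2% of its MG level.

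Tested within hashtags with edgeR's quasi-likelihood test, 5 of the 8 members differed between border macrophages and MG at an adjusted p under 0.05, beside 27.9% of the 12549 genes tested. All 8 had passed the filter on low counts. Of the 5, 2 were lower in border macrophages and 3 higher. Each hashtag gave a pair of sums, with 8 to 58 border macrophages in a sum. In simulated counts this comparison called more unchanged genes than its threshold allows, so that its adjusted p-values are somewhat too small. The comparison with T and NK cells and the splits by state and MHC class II, given further on, were not simulated.

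Ptgs1 had a lowest, median and highest level of 0, 80.8 and 149 CPM in border macrophages and of 301, 327 and 377 CPM in MG over the 9 hashtags. The level of 0 came from a sum of 8 cells. All 9 hashtags were lower, without overlap between the classes (log2 fold change -1.96, SE 0.18, adjusted p = 5.07e-26). Hpgds, at 355, 402 and 512 CPM against 554, 622 and 660 CPM, was also lower in 9 of 9 hashtags (-0.77, SE 0.14, adjusted p = 5.79e-07), and its groups did not overlap. Hpgd was higher in 9 of 9 hashtags, at 544, 889 and 1157 CPM against 264, 521 and 855 CPM (0.62, SE 0.13, adjusted p = 2.34e-05), with overlap between the groups. Ptger4 was higher in 9 of 9 hashtags as well, at 26.4, 86.2 and 261 CPM against 17.4, 24.7 and 28.6 CPM (1.75, SE 0.23, adjusted p = 3.45e-13). Alox5 was higher in 7 of 9 hashtags, with a median of 40.3 against 19.7 CPM (1.09, SE 0.27, adjusted p = 0.000461). Ptgs2 (log2 fold change -0.10, 95% interval -0.56 to 0.37), Alox5ap (0.23, -0.06 to 0.51) and Ltc4s (0.33, 0.06 to 0.60; adjusted p = 0.0606) did not pass. With all cells thinned to 1000 UMIs, the calls of Hpgd (0.36, adjusted p = 0.131), Alox5 (0.87, adjusted p = 0.154) and Ptger4 (0.99, adjusted p = 0.0698) were lost, with smaller fitted folds, and the cause was not tested. The median fold change of all genes was -0.19 under TMM scaling and -0.05 under RLE scaling, and 1790 of 3328 genes called were lower under RLE, against 2259 of 3496. Alox5ap (0.38) and Ltc4s (0.48) also passed under RLE, but in thinned cells both changed sign (-0.070 and -0.10). The part in these values of whatever RNA of MG the border macrophages held was not tested.

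Against T and NK cells, all 8 members differed from MG (7 hashtags with at least 10 T and NK cells), beside 41.4% of 13257 genes tested. Of these, 7 were lower in T and NK cells in 7 of 7 hashtags, with log2 fold changes from -4.23 for Alox5 to -2.94 for Alox5ap. Alox5 and Ptgs2 held 0 to 1 UMIs per sum of T and NK cells, so that the size of their folds is not resolved. Alox5 passed the filter on low counts only through MG, where it was higher. Ptger4 was higher in 6 of 7 hashtags (1.46, SE 0.26, adjusted p = 1.39e-07), at a median of 111 CPM against 25.3 CPM.

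**Figure D2:**
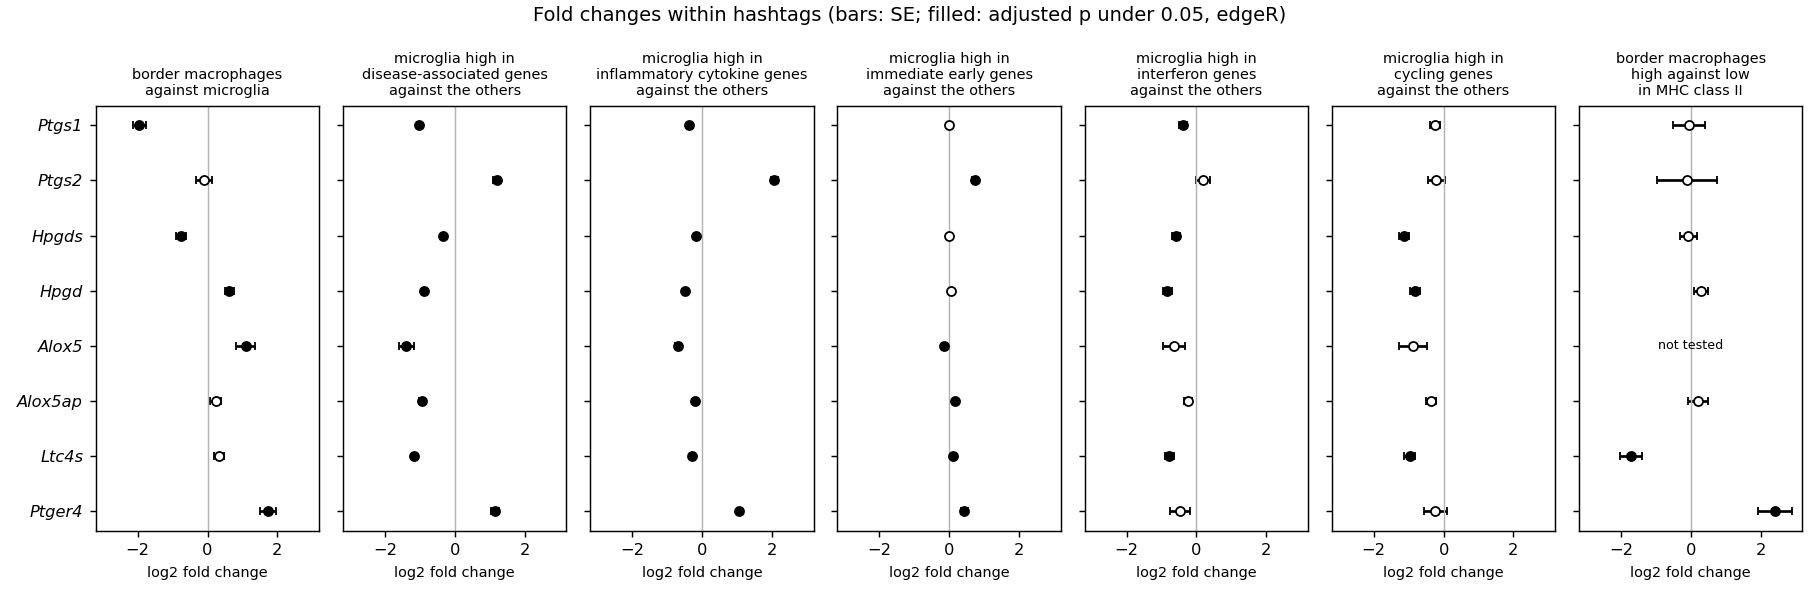
Log2 fold change of each of the 8 genes (x axis) within hashtags, for the class and state comparisons named above each panel, with bars for the SE and filled points for an adjusted p under 0.05. Ptgs1 was lower in border macrophages (-1.96) and in disease-associated MG (-1.03), while Ptgs2 was higher in disease-associated (1.20) and inflammatory cytokine MG (2.07).

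Among the libraries, the level in MG varied most for Ptgs2 and Hpgd. Ptgs2 stood at 24.2 and 27.9 CPM in the PBS and monomer libraries and at 33.5 and 64.4 CPM with vehicle and with AZD1480, a ratio of 2.66 between highest and lowest. Hpgd stood at 546, 388, 339 and 649 CPM in the same order. The PBS level of Hpgd thus lay between those of monomer and PFF + AZD1480, apart from each by more than the counting error (exact Poisson 95% interval 541 to 551 CPM in PBS, 384 to 392 CPM in monomer and 644 to 655 CPM in PFF + AZD1480). For the other 6 members the highest library was 1.18 (Hpgds) to 1.58 (Ptger4) times the lowest. With 1 library per condition these differences have no replicate check.

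AZD1480 given after PFF was compared with the vehicle over hashtags. In MG, 4 of the 8 members passed at an adjusted p under 0.05 in edgeR's test, beside 26.6% of the 13523 genes tested, and all 8 had passed the filter on low counts. Ptgs2 and Hpgd rose with AZD1480, and Alox5ap and Ltc4s fell. Depth and Gm42418, a gene that overlaps ribosomal RNA sequence, moved with the treatment. Median UMIs per MG were 2736 to 3463 in the PFF + VH hashtags and 6523 to 7315 in the PFF + AZD1480 hashtags, and Gm42418 stood at 10972 to 11782 CPM and at 8259 to 8585 CPM. With all cells thinned to 1000 UMIs the same 4 members passed in the same directions (adjusted p = 4.93e-05 to 0.0357), as they did with Gm42418 and 3 other genes of uncertain assignment left out (adjusted p = 0.000552 to 0.0465). The sums held 3320 to 4870 MG per hashtag in PFF + VH and 1158 to 2684 in PFF + AZD1480. How often groups of hashtags did not overlap for other genes was not counted, in this or in the other comparisons over hashtags.

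**Figure D3:**
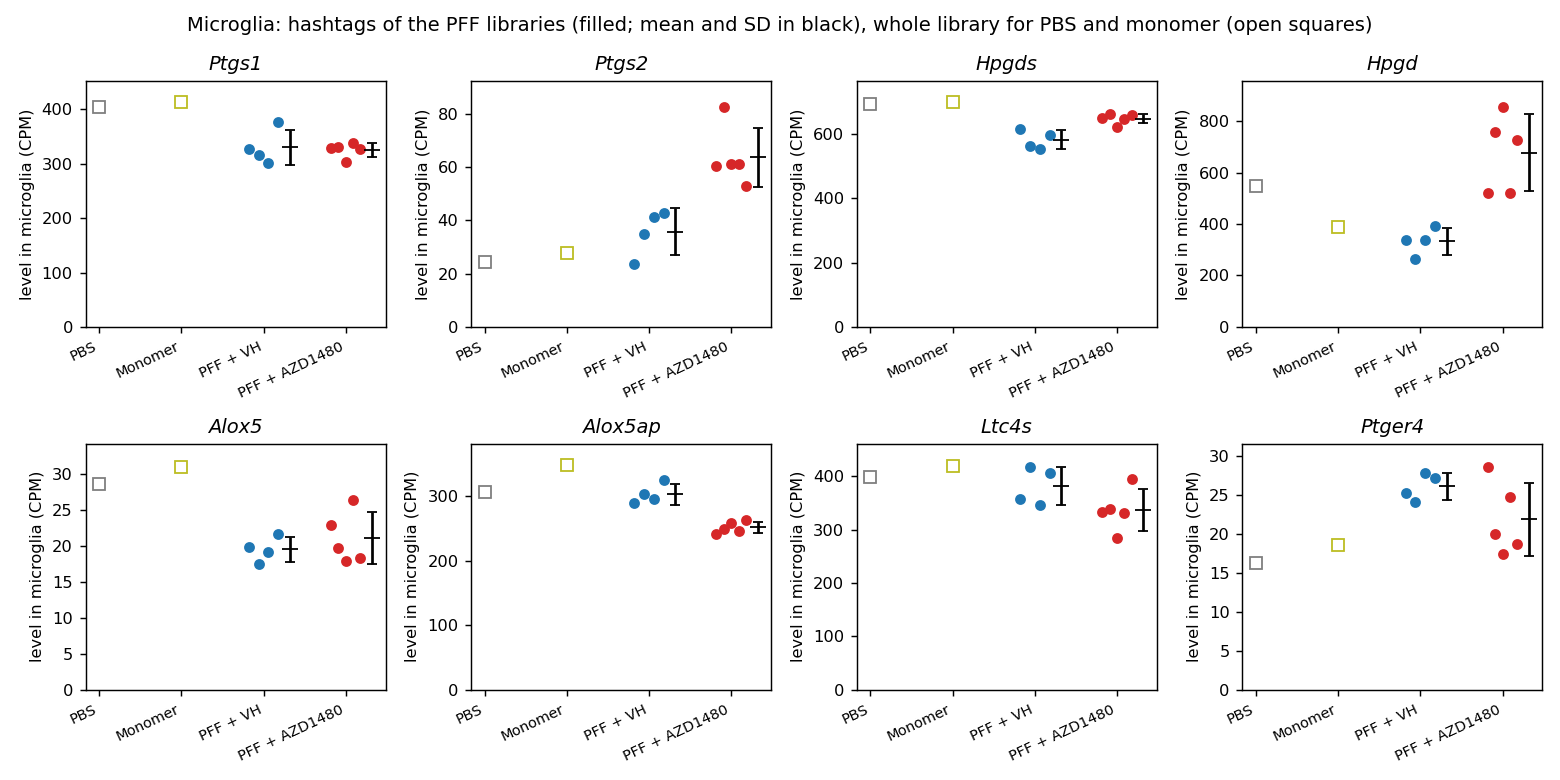
Level of each of the 8 genes in MG (y axis, CPM) by library (x axis), with filled points for hashtags, black marks for their mean and SD, and open squares for the whole PBS and monomer libraries, whose replicates could not be separated. Hpgd sat at 264 to 391 CPM in the 4 PFF + VH hashtags and at 521 to 855 CPM in the 5 PFF + AZD1480 hashtags, with the PBS library at 546 CPM and the monomer library at 388 CPM.

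Ptgs2, the inducible cyclooxygenase, stood at 23.6, 34.9, 41.4 and 42.9 CPM in the PFF + VH hashtags and at 60.4, 82.6, 61.3, 61.0 and 53.0 CPM in the PFF + AZD1480 hashtags. No vehicle hashtag reached the lowest AZD1480 hashtag, and hashtag 2 of PFF + AZD1480 was the highest (log2 fold change 0.78, SE 0.16, adjusted p = 0.00459). Of MG with AZD1480, 20.7% passed the limit on inflammatory cytokine genes after thinning, against 13.5% with vehicle, and the part of this share in the Ptgs2 level was not tested. Within MG below the limit on immediate early genes the difference was 0.53 (SE 0.17, adjusted p = 0.0431), and within those at or above it 0.93 (SE 0.17, adjusted p = 0.00182).

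Hpgd, which inactivates prostaglandins, stood at 339, 264, 337 and 391 CPM with vehicle and at 521, 756, 855, 522 and 728 CPM with AZD1480. The lowest hashtag with AZD1480 lay above the highest with vehicle (0.97, SE 0.15, adjusted p = 0.000752). The log2 fold change was 0.53 to 0.93 for Ptgs2 and 0.87 to 1.06 for Hpgd over the 23 settings tried, with both past the threshold in each. The share of MG with a UMI of Hpgd in cells thinned to 1000 UMIs was 26.5% with vehicle and 41.1% with AZD1480, against 5.00% and 5.15% of T and NK cells. Before thinning it was 50.6% and 83.7% of MG, against 16.7% and 24.7% of T and NK cells.

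Alox5ap stood at 289, 303, 295 and 326 CPM with vehicle and at 242, 250, 259, 246 and 264 CPM with AZD1480. Again the groups did not overlap, and the difference was small (log2 fold change -0.32, SE 0.05, adjusted p = 0.000543). Ltc4s stood at 358, 417, 346 and 407 CPM with vehicle and at 334, 339, 285, 331 and 395 CPM with AZD1480, with overlap (-0.24, SE 0.08, adjusted p = 0.0464). That call was lost without any of 7 of the 9 hashtags, at adjusted p from 0.0525 to 0.146, and kept without hashtag 1 of PFF + VH or hashtag 5 of PFF + AZD1480. The adjusted p was 0.0540 under RLE scaling, 0.0680 and 0.0991 with other calls of hashtags and 0.105 in MG below the immediate early limit.

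The other members gave smaller or less even differences. Hpgds stood at 554 to 615 CPM with vehicle and at 622 to 660 CPM with AZD1480 (log2 fold change 0.10, SE 0.04). The groups did not overlap, but the adjusted p was 0.0827 in edgeR, and DESeq2 gave 0.00642. Ptgs1 (-0.07, 95% interval -0.18 to 0.04) and Alox5 (0.07, -0.14 to 0.29) overlapped between the groups. Ptger4 stood at 24.1 to 27.8 CPM with vehicle and at 17.4 to 28.6 CPM with AZD1480, also with overlap (-0.29, SE 0.13, adjusted p = 0.114). It passed without hashtag 1 of PFF + AZD1480 (-0.41, adjusted p = 0.0142) and in MG below the limit on immediate early genes (-0.38, adjusted p = 0.0122). The summed interferon genes stood at 310 to 371 CPM with vehicle and at 133 to 210 CPM with AZD1480, and the microglial markers at 9187 to 10439 CPM and 9300 to 10163 CPM. The part of these shifts in the member genes was not tested.

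In border macrophages, none of the 5 members that passed the filter on low counts differed between PFF + AZD1480 and PFF + VH, beside 0.141% of the 2126 genes tested, that is 3 genes at an adjusted p under 0.05 in edgeR and 17 in DESeq2. At an unadjusted p under 0.05, 212 genes differed. The sums held 8 to 58 cells, so that smaller differences may have been missed. Ptgs2, Alox5 and Ptger4 did not pass the filter. Alox5ap stood at 264, 278, 275 and 345 CPM with vehicle and at 437, 369, 606, 468 and 313 CPM with AZD1480 (0.53, 95% interval 0.09 to 0.97, adjusted p = 0.429), the opposite sign to MG. Hpgd overlapped, at 544 to 1035 CPM and 640 to 1157 CPM (0.14, -0.30 to 0.57), as did Ptgs1, Hpgds and Ltc4s.

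Ptger4 in border macrophages stood at 26.4, 28.3, 80.8 and 60.0 CPM with vehicle and at 86.3, 86.2, 121, 120 and 261 CPM with AZD1480. The groups did not overlap, and the counts were few, at 3 to 5 UMIs per vehicle hashtag and 3 to 25 per AZD1480 hashtag. In hashtag 5 of PFF + AZD1480, 2 cells held 17 and 6 of its 25 UMIs. Without a filter on low counts, Ptger4 (1.61, adjusted p = 0.0355) and Ptgs2 (2.48, adjusted p = 0.00811) passed. For Ptgs2 a single cell held all 16 UMIs of hashtag 5, and another held 14 of the 16 UMIs of hashtag 1.

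Whether AZD1480 moved a gene differently in the 2 classes was tested as the interaction of class and treatment. Of the members, 1 passed, Ptger4, beside 0.335% of the 12549 genes tested, with all 8 members tested. Its AZD1480 effect was higher in border macrophages than in MG by 1.86 on the log2 scale (SE 0.46, adjusted p = 0.0210). The call was lost without hashtag 1 of PFF + VH (1.71, adjusted p = 0.131), without hashtag 2 of PFF + VH (1.69, adjusted p = 0.226), without hashtag 5 of PFF + AZD1480 (1.48, adjusted p = 0.374) and under stricter class limits (1.53, adjusted p = 0.615). For Alox5ap the difference was 0.89 (SE 0.28, adjusted p = 0.191), for Ptgs2 1.72 (SE 0.62, adjusted p = 0.388) and for Hpgd -0.75 (SE 0.24, adjusted p = 0.245). Hpgd passed under RLE scaling (-0.84, adjusted p = 0.0475), which gave 29 genes higher and 25 lower, against 30 and 12 under TMM.

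MG high in disease-associated or in inflammatory cytokine genes had more Ptgs2 and Ptger4 and less of the 6 other members than the other MG. Within each hashtag, MG were split by UMIs of gene lists that hold none of the 8 members, counted in the cell thinned to 1000 UMIs, and the sums of both sides were compared. High and low cells of a hashtag share a library, so that library and state are not mixed here. The limits on the lists are cuts of a range and not cell types, and 513 to 1170 MG of the 2 PFF libraries were at the disease-associated limit or 1 UMI below it.

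In MG high in disease-associated genes such as Spp1, Lpl and Cst7, all 8 members differed, beside 34.8% of the 12757 genes tested. Ptgs2 and Ptger4 were higher, and the 6 others were lower. The high sums held 46 to 230 cells per hashtag, and 4.77% of PFF + VH and 5.44% of PFF + AZD1480 MG were high.

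**Figure D4:**
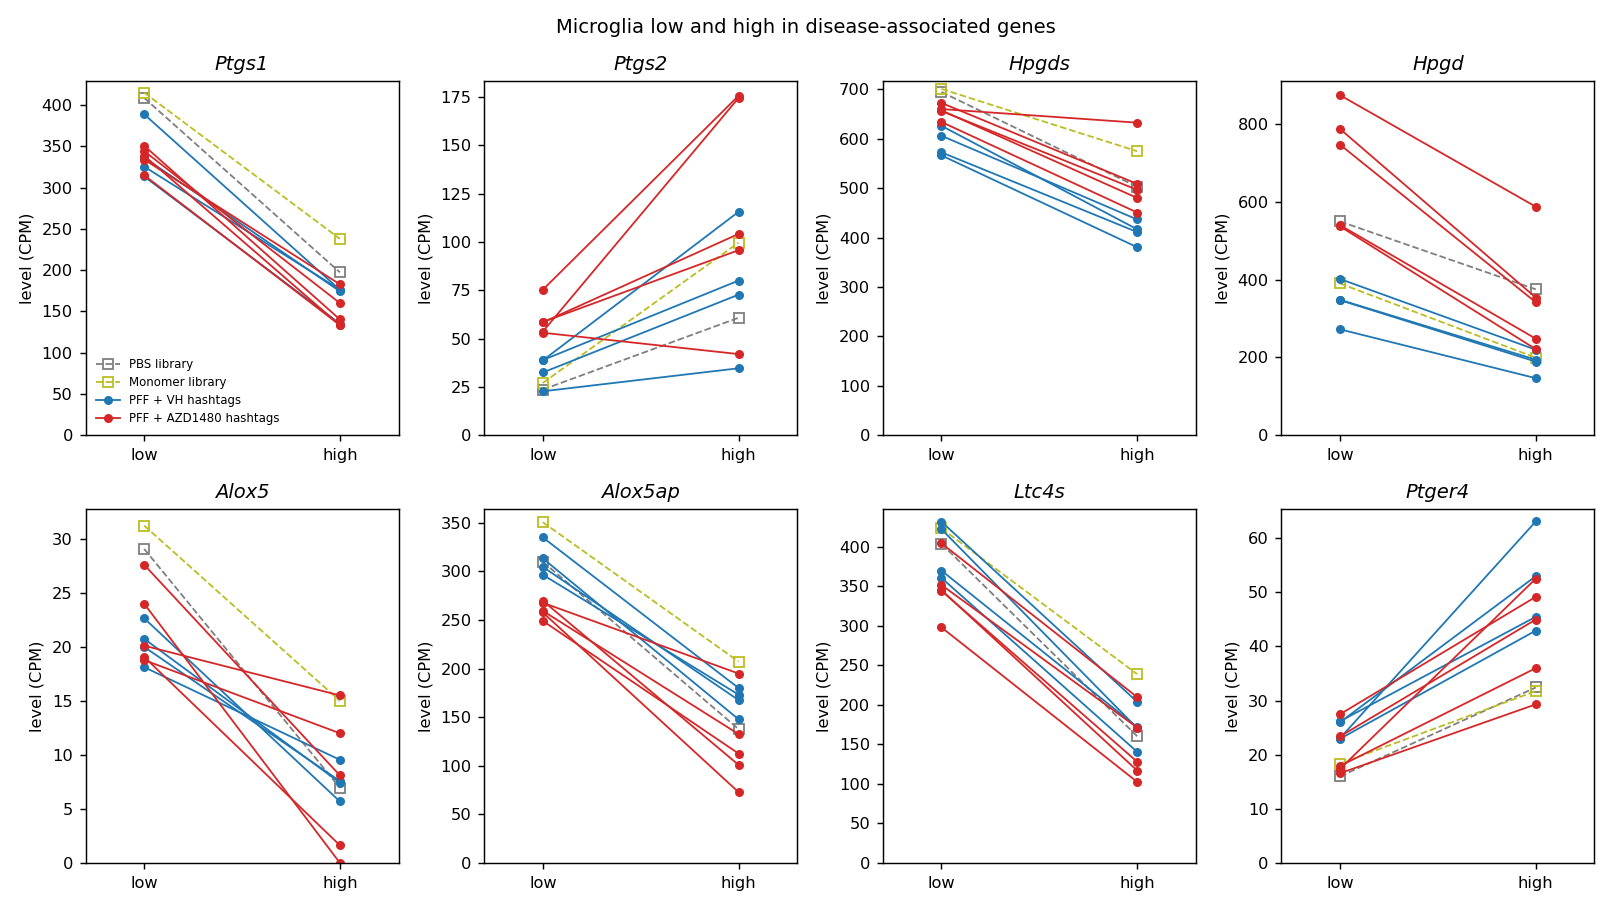
Level of the 8 genes (y axis, CPM) in MG low and high in disease-associated genes (x axis), with a line per hashtag of the PFF libraries and for the whole PBS and monomer libraries. Ptger4 rose in 9 of 9 hashtags and Ptgs2 in 8 of 9, and the 6 other genes fell in 9 of 9.

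Ltc4s had a lowest, median and highest level of 103, 170 and 210 CPM in the high cells and of 298, 361 and 432 CPM in the others. The groups did not overlap (log2 fold change -1.16, SE 0.06, adjusted p = 1.70e-19). Ptgs1 was at 133, 160 and 183 CPM against 314, 336 and 389 CPM, again without overlap (-1.03, SE 0.06, adjusted p = 2.65e-18). Alox5ap fell by 0.95 on the log2 scale (SE 0.08), from a median of 270 to one of 148 CPM. Alox5 fell by 1.39 (SE 0.21), from a median of 20.1 to one of 7.57 CPM, so that transcripts of Alox5, Alox5ap and Ltc4s were all lower. Hpgd fell by 0.87 (SE 0.06) and Hpgds by 0.35 (SE 0.05). The microglial markers summed to 6043 to 7314 CPM in the high cells of the 4 libraries and to 9810 to 11591 CPM in the others, and their part in these differences was not tested.

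Ptgs2 was at 34.6, 95.7 and 176 CPM in the high cells, against 22.7, 53.0 and 75.3 CPM in the others, higher in 8 of 9 hashtags with overlap between the groups (log2 fold change 1.20, SE 0.10, adjusted p = 5.59e-13). Ptger4 was at 29.3, 45.5 and 63.1 CPM against 16.6, 23.0 and 27.5 CPM, without overlap (1.16, SE 0.11, adjusted p = 3.10e-12). In the PBS and monomer libraries, which entered no test, all 8 genes went the same way. Ptgs2 stood there at 60.8 CPM in the high and 23.6 CPM in the other MG of PBS, and at 99.6 and 27.0 CPM in monomer. The border macrophage markers summed to 28.9 to 74.4 CPM in the high cells and to 16.9 to 41.1 CPM in the others, against at least 10453 CPM in border macrophages themselves. The inflammatory cytokine genes were higher in the high cells of 9 of 9 hashtags, at 14694 to 24870 CPM against 9079 to 14316 CPM, and their part in the Ptgs2 and Ptger4 levels was not tested.

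MG high in inflammatory cytokine genes such as Il1b and Tnf also differed in all 8 members, beside 45.6% of the 12634 genes tested. Ptgs2 rose by the most, from a lowest, median and highest level of 17.0, 32.7 and 42.2 CPM to 61.8, 127 and 183 CPM (log2 fold change 2.07, SE 0.10, adjusted p = 3.82e-16). The groups did not overlap. Ptger4 rose in 9 of 9 hashtags, from a median of 20.2 to one of 39.5 CPM (1.07, SE 0.07). The 6 other members fell in 9 of 9 hashtags, by 0.17 for Hpgds to 0.69 for Alox5 on the log2 scale, and both whole libraries without hashtags had all 8 in the same direction. In the high cells of the hashtags the microglial markers summed to 7312 to 7792 CPM, against 9627 to 10856 CPM in the others, and the disease-associated genes to 1024 to 1895 CPM against 392 to 726 CPM. The part of these shifts in the cytokine comparison was not tested, and a cell could be high in both lists. Without the hashtag block, Hpgd (adjusted p = 0.124) and Alox5ap (adjusted p = 0.0644) did not pass.

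MG high in immediate early genes such as Fos and Jun gave less, with 5 members past the threshold beside 47.4% of the 12985 genes tested, a share near the background. Ptgs2 was higher in 8 of 9 hashtags, at a median of 68.7 against 41.7 CPM (log2 fold change 0.73, SE 0.08, adjusted p = 1.51e-08). Ptger4 was fitted 0.43 higher (SE 0.10, adjusted p = 0.000717), although its CPM was higher in 5 of 9 hashtags. Alox5ap (0.18) and Ltc4s (0.10) passed with CPM higher in 5 and 3 of 9 hashtags, so that the direction of the fit and of most CPM differed for Ltc4s. In PBS and monomer, which were not in the fit, both were lower in the high cells. Alox5 (-0.15, adjusted p = 0.0363) was lost without any of 8 of the 9 hashtags (adjusted p = 0.0542 to 0.0733) and kept without hashtag 4 of PFF + VH. Without the hashtag block Ptgs2 and Ptger4 were the 2 members left. Ptgs1, Hpgds and Hpgd did not pass, although the CPM of the high cells was lower in 8, 9 and 7 of 9 hashtags and in PBS and monomer, while the scaled fit gave 0.00080, 0.0045 and 0.059 on the log2 scale. The inflammatory cytokine genes summed to 12601 to 19411 CPM in the high cells of the hashtags and to 8140 to 12260 CPM in the others, and the part of this was not tested.

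MG high in interferon genes such as Ifit1 and Isg15 were lower in 4 members, beside 11.0% of the 13069 genes tested. Hpgd, at a median of 280 against 522 CPM, was lower in 8 of 9 hashtags (log2 fold change -0.84, SE 0.13, adjusted p = 1.28e-08). Ltc4s (-0.78, SE 0.13) and Hpgds (-0.59, SE 0.11) were lower in 9 of 9 hashtags, and the 4 genes were lower in the PBS and monomer libraries too. The microglial markers were lower as well in 9 of 9 hashtags, at 6150 to 9067 CPM against 9217 to 10494 CPM, and their part was not tested. Ptgs1 (-0.39, SE 0.12, adjusted p = 0.0205) was not past the threshold under RLE scaling (adjusted p = 0.179), nor without hashtag 4 of PFF + VH (0.0947), hashtag 2 of PFF + AZD1480 (0.0641) or hashtag 3 of PFF + AZD1480 (0.0608). RLE moved the median of all genes from -0.10 to 0.01 and the split of calls from 595 higher and 848 lower to 840 and 400. Ptgs2 (0.18, 95% interval -0.21 to 0.57), Alox5, Alox5ap and Ptger4 did not pass.

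Cycling MG, in 7 hashtags with 5 to 58 such cells, were lower in 3 members, beside 25% of the 12850 genes tested, a share near the background. Hpgds was at a median of 314 against 618 CPM (log2 fold change -1.12, SE 0.14, adjusted p = 8.17e-14), and Ltc4s (-0.97, SE 0.15) and Hpgd (-0.83, SE 0.14) followed. All 3 were lower in 7 of 7 hashtags, as were the microglial markers, at 6021 to 8450 CPM against 9217 to 10462 CPM, whose part was not tested. RLE scaling moved the median of all genes from -0.14 to 0.00 and the split of calls from 1394 higher and 1813 lower to 1688 and 1236, with the same 3 members past the threshold. Ptgs1, Ptgs2, Alox5, Alox5ap and Ptger4 did not pass.

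Border macrophages were split by MHC class II genes in the same way, in 7 hashtags with 6 to 27 high cells. Of the 7 members that passed the filter on low counts, 2 differed, beside 3.01% of the 1993 genes tested, and Alox5 was not tested. Ltc4s was lower and Ptger4 higher in the cells with high MHC class II, but Ptger4 passed that filter only through such cells of PFF + AZD1480.

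**Figure D5:**
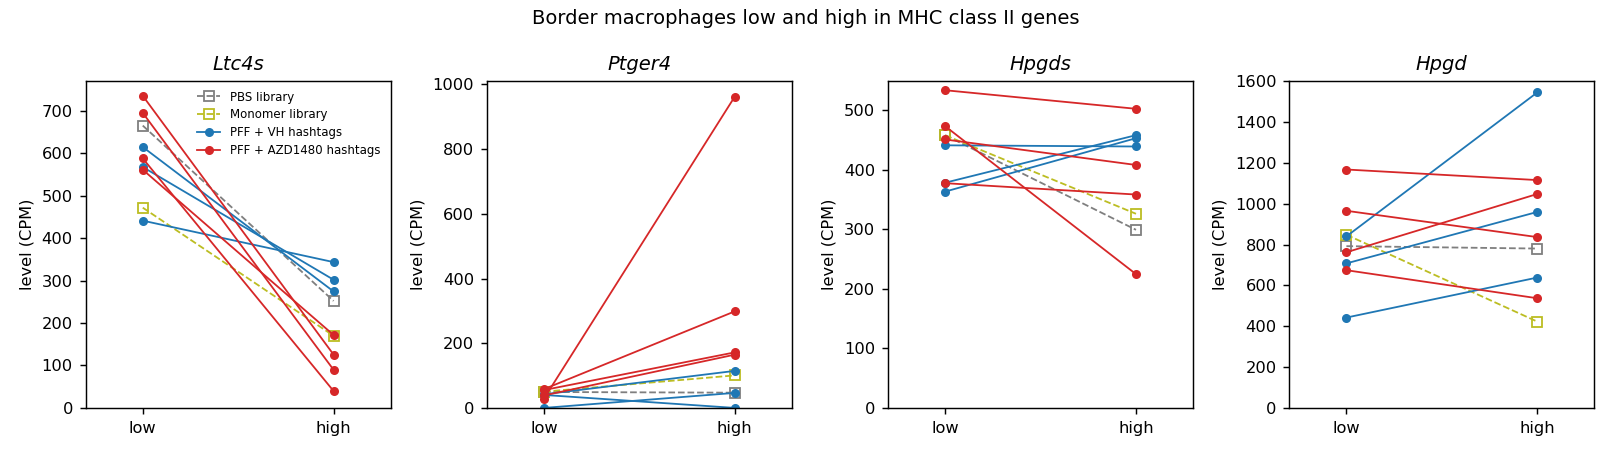
Level of Ltc4s, Ptger4, Hpgds and Hpgd (y axis, CPM) in border macrophages low and high in MHC class II genes (x axis), with a line per hashtag of the PFF libraries and for the whole PBS and monomer libraries. Ltc4s fell in 7 of 7 hashtags and in both libraries without hashtags, while Ptger4 rose in 6 of 7 hashtags and differed little in PBS (47.1 CPM high, 49.3 CPM low).

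Ltc4s stood in the high cells at 274, 302 and 343 CPM in hashtags 1, 2 and 4 of PFF + VH and at 89.8, 172, 39.8 and 126 CPM in hashtags 1, 2, 4 and 5 of PFF + AZD1480. In the low cells of the same hashtags it stood at 614, 567, 441, 695, 561, 588 and 735 CPM. The groups did not overlap (log2 fold change -1.71, SE 0.31, adjusted p = 0.00101), and the call was kept under each setting tried. In PBS Ltc4s stood at 252 CPM in the high and 665 CPM in the low cells, and in monomer at 170 and 472 CPM. The border macrophage markers were lower in the high cells as well, at 6282 to 11181 CPM against 11731 to 16274 CPM over the 4 libraries, while the microglial markers were at 1491 to 2577 CPM against 2235 to 2678 CPM. Markers of monocytes summed to 60.9 to 159 CPM in the high cells and to 2.79 to 39.2 CPM in the low cells, and those of dendritic cells to 45.1 to 167 CPM and 182 to 497 CPM. Their part in the result was not tested.

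Ptger4 stood in the high cells at 0, 46.4 and 114 CPM in hashtags 1, 2 and 4 of PFF + VH and at 165, 172, 298 and 962 CPM in hashtags 1, 2, 4 and 5 of PFF + AZD1480. In the low cells it stood at 0 to 58.0 CPM, with overlap (log2 fold change 2.42, SE 0.49, adjusted p = 0.00303). It had passed the filter on low counts only through high cells with AZD1480, so that its call is no check on its level there. The 4 AZD1480 hashtags were the highest. Few cells carried the counts: in hashtag 5, 2 of 6 high cells held all 23 UMIs, and in hashtag 4, 2 of 9 held all 15. Without hashtag 5 the value was 1.84 (adjusted p = 0.0965). Ptgs1 (-0.05), Ptgs2 (-0.10), Hpgds (-0.07), Hpgd (0.29) and Alox5ap (0.20) did not pass.

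The other genes of the pathway, a list of 50 in 7 roles, were followed in the same fits. In MG, of 26 tested, 1 was higher and 2 lower with AZD1480, beside 26.6% of all genes tested, and the median change was -0.06 on the log2 scale beside 0.00 over all genes. The chemerin receptor gene Cmklr1 rose by 0.38 (SE 0.05, adjusted p = 0.000317), the EP3 receptor gene Ptger3 fell by 1.38 (SE 0.29, adjusted p = 0.00435) and Prxl2b, which encodes a prostamide synthase, fell by 0.29 (SE 0.08, adjusted p = 0.0212). Ptger3 was low throughout, at 10.7 CPM in PBS and 9.61 CPM in PFF + VH against 3.41 CPM with AZD1480. In border macrophages 0 of 8 tested passed, beside 0.141% of all genes tested, and in the interaction 0 of 27, beside 0.335%, so that neither count stands apart from the background. Levels in MG, which are not compared between genes, were 268 to 311 CPM for Daglb, 297 to 368 CPM for Tbxas1, 23.5 to 27.8 CPM for the prostaglandin reductase gene Ptgr2, 21.9 to 32.6 CPM for Ggt5, 0.140 to 0.860 CPM for Alox15 and 83.5 to 111 CPM for Cysltr1.

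Between border macrophages and MG, 4 of 27 genes tested were higher and 6 lower, beside 27.9% of all genes tested, with a median of -0.02 beside -0.19 over all genes. Pla2g2d, a secreted phospholipase, stood at 84.0 to 158 CPM in border macrophages and at 0.0322 to 0.266 CPM in MG, and Ptgds, the other prostaglandin D2 synthase, at 93.4 to 199 CPM and 0.784 to 1.68 CPM. Of the genes that release arachidonic acid, 5 of 7 were lower in border macrophages, led by the monoglyceride lipase gene Mgll (log2 fold change -3.81, SE 0.43), the diacylglycerol lipase gene Daglb (-2.18, SE 0.19) and the phospholipase C gene Plcb2 (-1.32, SE 0.41). The formyl peptide receptor gene Fpr2 (5.90, SE 0.80) and Prxl2b (1.85, SE 0.23) were higher, and Ptger3 was lower (-2.80, SE 1.05). Pla2g2d and Ptgds, both low in MG, and perhaps Fpr2 can have passed the filter on low counts through border macrophages alone. Their calls here are thus no check on their levels there. In T and NK cells 6 of 31 were higher than in MG (Cysltr2, Faah, Ltb4r1, Ptger2, Mgst2 and Lta4h) and 12 were lower, beside 41.4% of all genes tested, with a median of -1.06 beside -0.44 over all genes. Those lower included the cytosolic phospholipase A2 gene Pla2g4a (-4.09, SE 0.37), the thromboxane synthase gene Tbxas1 (-3.77, SE 0.27) and, by less, Pla2g15, Daglb, Cmklr1, Prxl2b, Ggt5, Cysltr1, Mgst3 and Cbr1. Cysltr2, a receptor for cysteinyl leukotrienes, stood at 45.7 to 78.7 CPM in T and NK cells. Whether any of the 6 higher genes passed that filter through T and NK cells alone was not checked.

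In disease-associated MG, 5 of 27 were higher and 9 lower, beside 34.8% of all genes tested, with a median of -0.13 beside -0.03 over all genes. Cysltr1, the other receptor for cysteinyl leukotrienes, fell by 1.13 (SE 0.10, adjusted p = 4.72e-13), Ggt5, which trims leukotriene C4, fell by 1.94 (SE 0.20, adjusted p = 6.89e-11) and Ptger3 fell by 1.86 (SE 0.38). Ptges, the inducible prostaglandin E synthase, rose by 1.80 (SE 0.38, adjusted p = 0.000147) and its level in all MG was 0.588 to 1.98 CPM. Cyp4f18, which degrades leukotriene B4, was 1.62 higher (SE 0.29), Abcc1, an exporter of leukotriene C4, 0.64 higher (SE 0.16) and the lipoxygenase gene Alox15 2.06 higher (SE 0.66). Ptges and Alox15, both low in all MG, can have passed the filter on low counts through the high cells alone. Their calls here, and that of Ptges in inflammatory cytokine MG given next, are thus no check on their levels there. Among genes that release arachidonic acid, Pla2g6 was higher (0.71) and Pla2g4a (-0.61), Mgll (-0.56) and Pla2g15 (-0.43) were lower, and Cmklr1 (-0.29) and Tbxas1 (-0.16) were lower too. In inflammatory cytokine MG 5 of 27 were again higher and 9 lower, beside 45.6% of all genes tested, with Ptges at 1.75 (SE 0.28), Ptger3 at -1.44 (SE 0.21), Ggt5 at -0.62 (SE 0.08) and Cysltr1 at -0.54 (SE 0.05). Immediate early MG had 1 of 26 higher (Ptges3, 0.26) and 5 lower, led by Daglb (-0.43) and Abcc4 (-0.37), beside 47.4% of all genes tested. Interferon MG had 0 of 25 higher and 2 lower (Ggt5, -1.22, and Mgll, -0.75), beside 11.0% of all genes tested. Cycling MG had 3 of 25 higher (Ptgr1, 1.71, Akr1b3, 0.72, and Ptges3, 0.53) and 7 lower, led by Ptger3 (-2.19) and Mgll (-1.38), beside 25% of all genes tested. In border macrophages high in MHC class II, 0 of 6 passed, beside 3.01% of all genes tested, so that this count does not stand apart from the background.

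Across 12 profiles, the MG, border macrophages and T and NK cells of the 4 libraries, 6 members were compared with 10816 other genes by the Pearson correlation of log2(CPM + 1). The profiles share libraries and fall into 3 classes, so that the values mainly describe the difference between classes. The genes most like Hpgds were Csf1r, the receptor for colony-stimulating factor 1 (r = 0.999), Marcks and Mir99ahg. Hpgd was most like C3ar1, a complement receptor gene (r = 0.992), Creb5 and Rbm47. Alox5ap was most like Fcrls, listed here among the microglial markers (r = 0.997), C1qc and Cd302. The mean of Alox5ap itself was no lower in border macrophages (379 CPM) than in MG (302 CPM). Alox5 was most like Ly96 (r = 0.991), Erlin1 and Hmox1. Ptgs2 (Tm7sf3, Mapkapk2 and Clcn6; highest r = 0.955) and Ptger4 (C1galt1, Use1 and Slc41a2; highest r = 0.960) had no partner as close as those 4 members.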

How the data were processed

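The series holds 6 samples, 4 of them mRNA libraries and 2 the hashtag libraries of the PFF groups. The matrices hold UMI counts that the authors deposited as raw values per gene and cell, made with Cell Ranger (7.0.1 per the file headers) on mm10. Cells were kept at 500 to 15000 UMIs, 250 to 5000 genes and up to 10% mitochondrial UMIs, after the limits the study states. Cell classes needed 5 UMIs of 3 own markers (2 for basophils), 2 marker UMIs per 1000 UMIs and few markers of other classes, with a tolerance of 0.2 for MG and 0.5 elsewhere. These limits and those of the states were set after seeing the data. Cells with mixed markers were left out as likely doublets, and no doublet caller was run. Cells with more than 1 hashtag (10.7% in PFF + VH and 12.5% in PFF + AZD1480) were left out of the hashtag sums but not of the library levels and state shares. Hashtags were called with HTODemux in Seurat 5.3.0 (quantile 0.99).

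UMI counts were summed per class or state and hashtag, leaving out sums of under 5 cells (10 for T and NK cells), and fitted in edgeR 4.0.16 by the quasi-likelihood test with TMM scaling, filterByExpr and Benjamini-Hochberg adjustment over all genes tested (threshold 0.05). Comparisons within hashtags had the hashtag as a block. State lists were counted in cells thinned to 1000 UMIs, at limits of 4 (disease-associated), 3 (interferon, cycling and MHC class II) and 20 UMIs (immediate early and inflammatory cytokine), and Clec7a of these lists was not used here. In simulated counts, border macrophages against MG called somewhat more unchanged genes than the threshold allows. T and NK cells against MG, the splits of MG by state and the MHC class II split were not simulated. DESeq2 1.42.0, RLE scaling, other filters, hashtag calls and class limits, thinned cells and leaving out each hashtag were alternatives. CPM was taken over all UMIs of a summed class, and its Poisson and the shares' binomial 95% intervals cover counting error only. Chi-square tests of hashtags of 1 library found none that matched within the sampling noise of single UMIs. UMIs of a cell are not independent, so that these tests cannot show whether the hashtags are separate samples.

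The members, marker and state lists, the 50 other pathway genes and the motifs were chosen with earlier results of these data known. All members are named. Of the other pathway genes, those past the threshold are named, up to 4 a role with the largest fold change first, and 1 of each role taken by its CPM in MG, which ranks no gene against another. Likeness used genes with at least 10 CPM in some profile and classes with at least 30 cells per library, and that of Ptgs1 and Ltc4s is not reported here.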

Additional observations from a re-analysis of the deposited data

Results flagged for a closer look

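In MG, hashtag 2 of PFF + AZD1480 stood at 82.6 CPM of Ptgs2, farther from the other 4 hashtags than Dixon's 95% limit allows. In border macrophages, hashtag 5 of PFF + AZD1480 stood at 261 CPM of Ptger4, again beyond that limit, and 2 of its 26 cells held most of the UMIs. These were 2 of 32 groups of hashtags examined, and chance puts about 1 in 20 groups beyond the limit. The effect of AZD1480 on Ptger4 was higher in border macrophages than in MG by 1.86 on the log2 scale, in the test of the difference itself (adjusted p = 0.0210). The call was lost without any of 3 single hashtags (adjusted p = 0.131 to 0.374) and under stricter class limits (0.615), and Ptger4 did not pass the filter on low counts in border macrophages alone.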

How the results depend on the processing

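Of 1228 alternative fold changes of members, 1130 kept direction and side of the threshold, 38 lost the threshold, 17 passed it and 43 changed sign. In the splits by state and MHC class II, the setting of at least 1000 UMIs repeated the main fit and could only keep its result. The cells of those splits all had that depth already. Of the sign changes, 0 were past the threshold, and the largest original log2 fold change among them was 0.37 in size. The causes were not tested.

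Thinning to 1000 UMIs, which leaves fewer counts, gave 1614 genes for AZD1480 in MG, 1 in border macrophages, 2224 (2 members) for border macrophages against MG, and 3478 for T and NK cells, and turned Alox5ap (-0.070) and Ltc4s (-0.10) between the macrophage classes and Ltc4s (-0.17) under AZD1480 in border macrophages. MG at or above the immediate early limit, chosen after seeing the data, gave 2264 genes. For AZD1480 in border macrophages, no filter gave 40 genes (2 members), the hashtag share rule 5 (1 member, with Ltc4s at -0.10), stricter classes 1 and DESeq2 17, and cells of at least 1000 UMIs put Ltc4s at -2.5e-05. RLE scaling turned Ptgs2 between the macrophage classes to 0.031 and gave 2 members in the interaction. Stricter classes gave 0 members there, with Ptgs1 at 0.26 and Hpgds at 0.076, and turned Ptgs2 between the macrophage classes to 0.12. For immediate early MG, no filter turned Ptgs1 (-0.018) and Hpgds (-0.014). With 1 more UMI of the list, cycling MG gave 5 members among 2962 of 12999 genes, and Ptgs2 in the MHC class II split was 0.025.

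Equal hashtag numbers did not pair the treatments (correlations of deviations from -0.034 to 0.064 in MG and from -0.047 to 0.100 in border macrophages). With the number as a replicate block, AZD1480 gave 3263 genes and 4 members in MG and 6 genes and 0 members in border macrophages, with Hpgds at -0.053 there. Without the hashtag block in the other comparisons, immediate early MG gave 2 members, with Ptgs1 at -0.0026, and the MHC class II split 1 member and 27 genes, with Ptgs2 between the macrophage classes at 0.046.

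Leaving out 1 hashtag at a time gave 1 to 7 genes for AZD1480 in border macrophages, with Hpgds at -0.046 to 0.10, Hpgd at -0.034 to 0.28 and Ltc4s at -0.044 to 0.14, and Alox5 in MG at -0.018 to 0.12. It gave Ptgs2 between the macrophage classes at -0.45 to 0.034. In the interaction it gave 0 to 1 members and 25 to 55 genes, with Hpgds at -0.10 to 0.033 and Alox5 at -0.76 to 0.19. Ptgs2 was at -0.31 to 0.31 in interferon and -0.60 to 0.077 in cycling MG, and in immediate early MG Ptgs1 was at -0.014 to 0.0069 and Hpgds at -0.0043 to 0.015. The MHC class II split gave 1 to 2 members and 25 to 84 genes, with Ptgs1 at -0.36 to 0.26, Ptgs2 at -0.83 to 0.55, Hpgds at -0.18 to 0.075 and Alox5ap at -0.011 to 0.42.

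Of the 64 levels in MG and border macrophages, 29 moved beyond their counting interval with thinning, 15 with stricter classes and 23 with no filter on cells. Sums of 8 to 58 border macrophages may limit what could be detected there.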

Other observations

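Levels in 3 small classes were pooled over libraries because few cells were found. The 37 monocytes held Alox5ap at 882 CPM (exact Poisson 95% interval 778 to 996), Hpgd at 208 CPM (159 to 267) and Ptgs2 at 140 CPM (100.2 to 189). The 16 mast cells, cells known for making prostaglandin D2, held Hpgds at 446 CPM (320 to 605), Alox5ap at 348 CPM (238 to 491) and Alox5 at 87.0 CPM (37.6 to 171). Their Hpgds level was uneven, with 0 UMIs in the 2 cells of the monomer library, 315 CPM with vehicle and 753 CPM with AZD1480, against 591 to 700 CPM in MG. The mast cells of PFF + VH held the microglial markers at 28.9% of the MG level, and the part of this was not tested. The 6 dendritic cells held Ptger4 at 511 CPM (334 to 748) and Ptgs2 at 314 CPM (180 to 510), with all 16 Ptgs2 UMIs in 2 cells. These values have no replicates, and the intervals cover counting error only.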
